A study of Mus musculus with 10 samples.

Results

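The 82 genes described here encode synaptic and neural cell adhesion molecules, and they were taken by symbol from the 14859 protein-coding genes in a table of 18464 genes. They are the neurexins (Nrxn), neuroligins (Nlgn), cerebellins (Cbln), the leucine-rich Lrrtm, Slitrk, Flrt, Lrfn, Elfn and Lingo genes, the calsyntenins (Clstn), teneurins (Tenm), contactins (Cntn), contactin-associated proteins (Cntnap), Cadm and Ncam genes, the L1 family, 4 genes of the IgLON family and genes named Lrrn or Igsf. Grouped by name they make 19 families, of which Igsf is a naming group rather than a set of close relatives. All 82 passed the filter on low counts. Naive Aldh1l1-NuTRAP mice gave tissue of the ventral midbrain, that is the ventral tegmental area with the substantia nigra pars compacta, from which 5 libraries of whole-tissue input and 5 for astrocytes were sequenced. In this strain a ribosome tag depends on the promoter of Aldh1l1, a gene of astrocytes, and the fraction holds RNA pulled down on tagged ribosomes. Titles carry the numbers 88, 92, 976, 981 and 982, each on 1 input and 1 fraction library, while age, sex, any Cre allele and any pooling of animals are unstated in the sources used here. Nothing in the labels says that the numbers are separate animals, so p-values measure the spread between these libraries.

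Adhesion molecules span the cleft between the cells that meet at a synapse. Presynaptic neurexins bind neuroligins, leucine-rich proteins and, through secreted cerebellins, delta glutamate receptors on the other side. Contactins, L1 family proteins and contactin-associated proteins hold axons to myelinating glia around the nodes of Ranvier, and astrocytes are known to carry some of the same molecules on the fine processes that reach synapses.

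Totals ran from 21812193 to 30878894 counts in the input and from 24479136 to 26924406 in 4 fraction libraries, with 3845554 in the fraction library 92. Levels are CPM, counts scaled to library size with TMM factors, and a log2 fold change is fraction minus input. All 9 astrocyte markers rose in the fraction (median log2 fold change 3.05), all 10 neuron markers fell (-2.30), as did all 8 mature oligodendrocyte (-3.83), 5 precursor (-3.21) and 8 microglia markers (-4.32), and 4 of 6 endothelial and mural markers (-0.71), and no marker was at 0 in all 5 fraction libraries. Choroid plexus and ependyma markers summed to 3234 and 680.1 CPM in the inputs 976 and 982, and to 12350 and 2598 CPM in the fraction with the same numbers. For numbers 88, 92 and 981 the sums were 31.69, 19.15 and 21.83 CPM in the input and 108.7, 75.42 and 96.77 CPM in the fraction. The sum was thus higher in the fraction within every number. Ttr, Clic6 and Foxj1 were higher in 5 of 5 numbers and Kl in 3. All 4 were not called in the main fit, which does not pair the numbers (median 2.03).

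Most adhesion genes fell in the astrocyte fraction, but a smaller group rose, and in 9 of 19 families there were calls both ways. Of the 82 genes, 17 were called higher (20.7%), 59 lower (72.0%) and 6 were not called, where a call is an adjusted p under 0.05 from edgeR's quasi-likelihood test. Among all 17672 tested genes 33.1% were higher and 37.5% lower, 70.6% in all. The median log2 fold change of the 82 genes was -1.72, against -0.06 over all tested genes. A change of at least 2-fold was seen for 8 of the higher and 53 of the lower genes. The values of the 2 groups did not overlap for 12 higher and 56 lower genes, which is 82.9% of the 82, where 27.2% and 31.1% of all tested genes, 58.2% together, were so. In such bulk RNA, fewer cells of a type and less RNA per cell cannot be told apart, nor can the cell source be told apart from binding to ribosomes. Scaling to total counts, which moves the median of all genes to -0.34, gave 13 higher and 62 lower adhesion genes, and it lowered the higher share of all called genes from 46.9% to 34.0%.

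**Figure D1:**
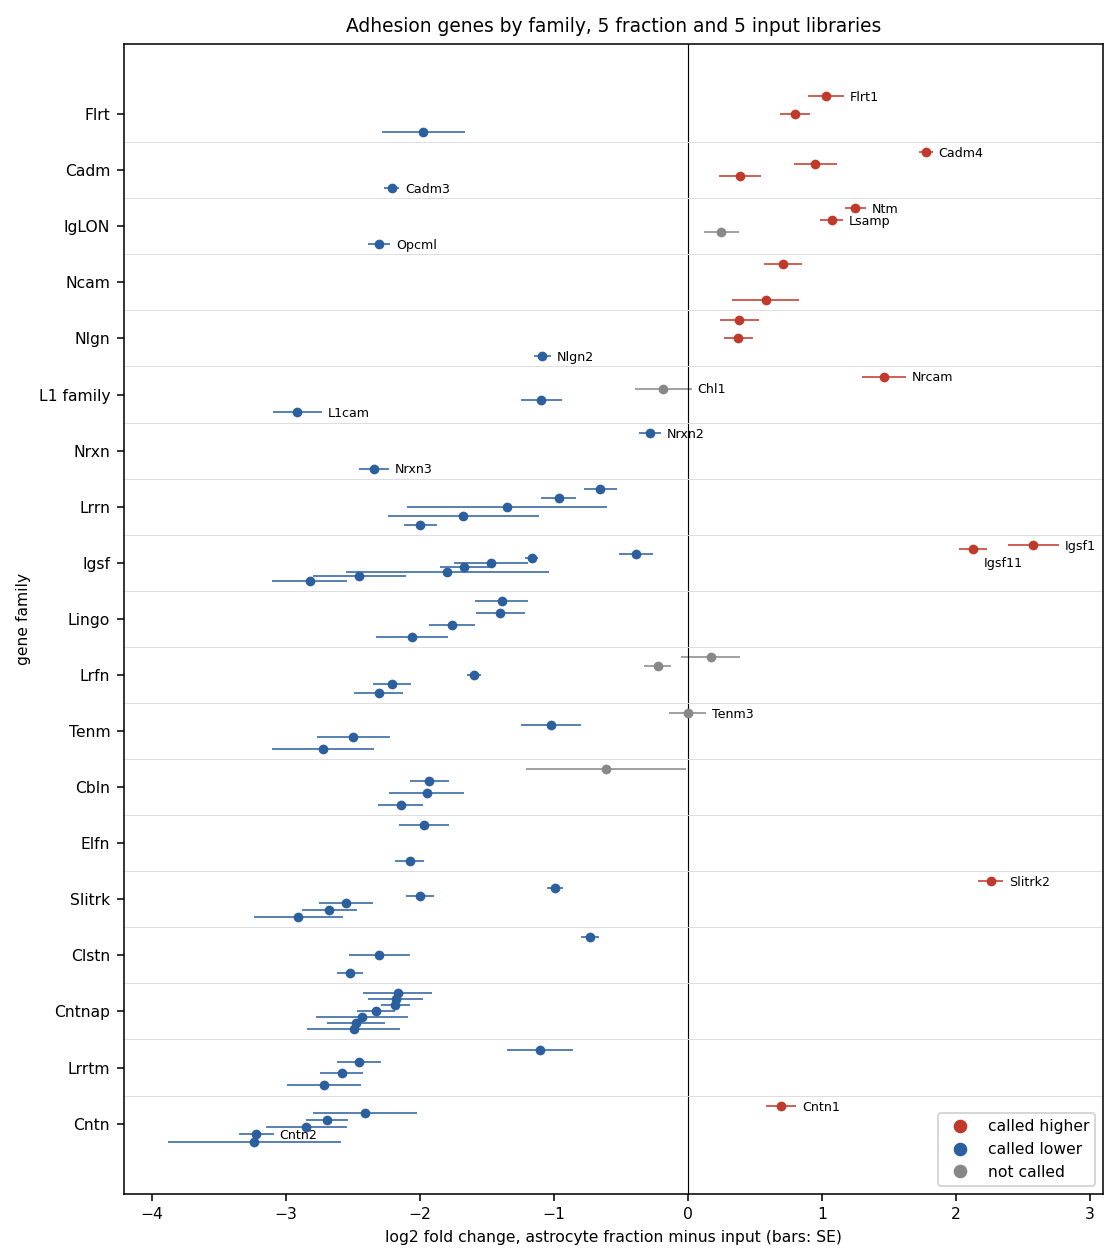
Log2 fold change (astrocyte fraction minus input, horizontal axis) of the adhesion genes, with 1 point per gene, bars for the standard error and families ordered by the median of the points shown. Red points were called higher, blue lower and grey not called, and families such as Cadm, Slitrk and Igsf hold both red and blue points. With scaling to total counts the grey Negr1 and Lrfn4 fall below 0.

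Of the 19 families, 9 had calls both ways, 1 (Ncam) had only higher calls and 9 had no higher call. Because the scaling of a library cancels in the ratio of 2 genes within it, each pair of members of a family was also compared by that ratio. Of 163 such pairs, 86 (52.8%) differed between fraction and input (two-sided exact permutation test over libraries, adjusted over the 163 pairs). Among the 3158 pairs of these genes taken from different families, 68% differed by the same test, so differing pairs were not more frequent within families. The smallest p that this design allows is 0.00794, which is 0.0170 after adjustment, so pairs given at 0.0170 are at that limit.

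Neurexins are the presynaptic receptors at the centre of this network, and Nrxn2 and Nrxn3 both fell, by very different amounts. In this and the following sentences the values of a group are given in the order 88, 92, 976, 981 and 982. Nrxn2 was at 534, 529.5, 456, 531 and 488 CPM in the input and at 437, 396, 350.3, 445 and 454 CPM in the fraction. All inputs lay above all fraction libraries, with a small log2 fold change of -0.29 ± 0.08, adjusted p = 0.00835, and this call was lost without the fraction library 976 (-0.16, adjusted p = 0.114). Nrxn3 was at 240.0, 257, 194, 244 and 199 CPM in the input and at 45.7, 49.3, 36.5, 45.8 and 46.6 CPM in the fraction. The gene (ENSMUSG00000066392) lies on chromosome 12, 88722876 to 90334935 (mm10). Nrxn3 fell to 19.7% of the input (-2.35 ± 0.11, adjusted p = 8.47e-10), and every fraction library lay far below every input. Within a library the ratio of Nrxn2 to Nrxn3 was higher in the fraction by 2.05 ± 0.07 on the log2 scale (SE, adjusted p = 0.0170, exact permutation test).

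Neuroligins, the main postsynaptic partners of neurexins, also parted by gene. Nlgn1 was at 35.7, 34.8, 30.96, 39.2 and 34.3 CPM in the input and at 44.5, 58.4, 34.97, 52.5 and 39.9 CPM in the fraction. Its fraction was higher in 5 of 5 numbers with overlapping groups, and the log2 fold change was 0.38 ± 0.14, adjusted p = 0.017. Nlgn3 was at 79.2, 80.8, 78.6, 75.8 and 81.4 CPM in the input and at 106, 120.3, 78.1, 99.5 and 111 CPM in the fraction. Here 4 of 5 numbers were higher, the fraction library 976 lay within the input, and the log2 fold change was 0.38 ± 0.11, adjusted p = 0.00434. Nlgn3 shares 41.2% of its exon bases with another gene model on its own strand, so its count is uncertain. Nlgn2 was at 295, 291, 302, 298 and 300.3 CPM in the input and at 144, 121, 133, 140.3 and 159 CPM in the fraction. The gene (ENSMUSG00000051790) lies on chromosome 11, 69823122 to 69837784 (mm10). Nlgn2, the neuroligin of inhibitory synapses, fell to 47.1% of the input (-1.09 ± 0.07, adjusted p = 2.70e-08), with no overlap between groups. The ratio of Nlgn1 to Nlgn2 was higher in the fraction by 1.47 ± 0.18 and that of Nlgn2 to Nlgn3 lower by a log2 difference of -1.46 ± 0.12 (adjusted p = 0.0170 each, exact permutation test). The ratio of Nlgn1 to Nlgn3 differed by 0.01 ± 0.12 (adjusted p = 0.988, exact permutation test). The small rises of Nlgn1 and Nlgn3 were not called with scaling to total counts (0.09 and 0.09), and that of Nlgn1 was not called without number 92 (0.29, adjusted p = 0.0595) or with a mean of at least 5 CPM as the filter (0.29, adjusted p = 0.0631).

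The cerebellins, Lrrtm genes and calsyntenins, whose products also bind neurexins, were lower wherever they were called. Of 4 cerebellins, secreted relatives of complement C1q, 3 were lower and 1 was not called. Cbln1 fell from 85.1 ± 10.8 to 23.1 ± 10.4 CPM (-1.95 ± 0.28, adjusted p = 1.87e-05), and Cbln2 (-2.15) and Cbln4 (-1.93) were lower as well. Cbln3 held only 4 to 18 counts in each fraction library and was not called (-0.61, adjusted p = 0.258). It was called lower without the fraction library 92 (-1.01, adjusted p = 0.0265). All 4 Lrrtm genes, postsynaptic leucine-rich ligands of neurexins, were lower. Lrrtm1 was at 86.4, 169.5, 104, 106 and 141 CPM in the input and at 13.5, 30.5, 19.5, 13.6 and 19.4 CPM in the fraction. The log2 fold change of Lrrtm1 was -2.71 ± 0.28, adjusted p = 1.85e-06, and its fraction library 92, the highest of the fraction at 30.5 CPM, was still below the lowest input. Lrrtm3 (-2.46) and Lrrtm4 (-2.59) lay close to it, and Lrrtm2 fell less (-1.11), with each of its 3 ratios to the others differing (adjusted p = 0.0170, exact permutation test). Lrrtm4 shares 25.1% of its exon bases with gene models on the opposite strand, and the strand setting of the counting is unstated. The 3 calsyntenins, cadherin-like proteins that also bind neurexins, were all lower. Clstn3 was at 589, 675, 489.8, 653 and 546 CPM in the input and at 97.95, 116, 93.03, 103 and 105 CPM in the fraction. Clstn3 fell by 2.52 on the log2 scale (adjusted p = 2.74e-10) and Clstn2 by 2.30, while Clstn1, a cargo adaptor for kinesin as well, kept 60.3% of the input (-0.73). The ratio of Clstn1 to Clstn3 was higher in the fraction by 1.79 ± 0.08 (adjusted p = 0.0170, exact permutation test).

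**Figure D2:**
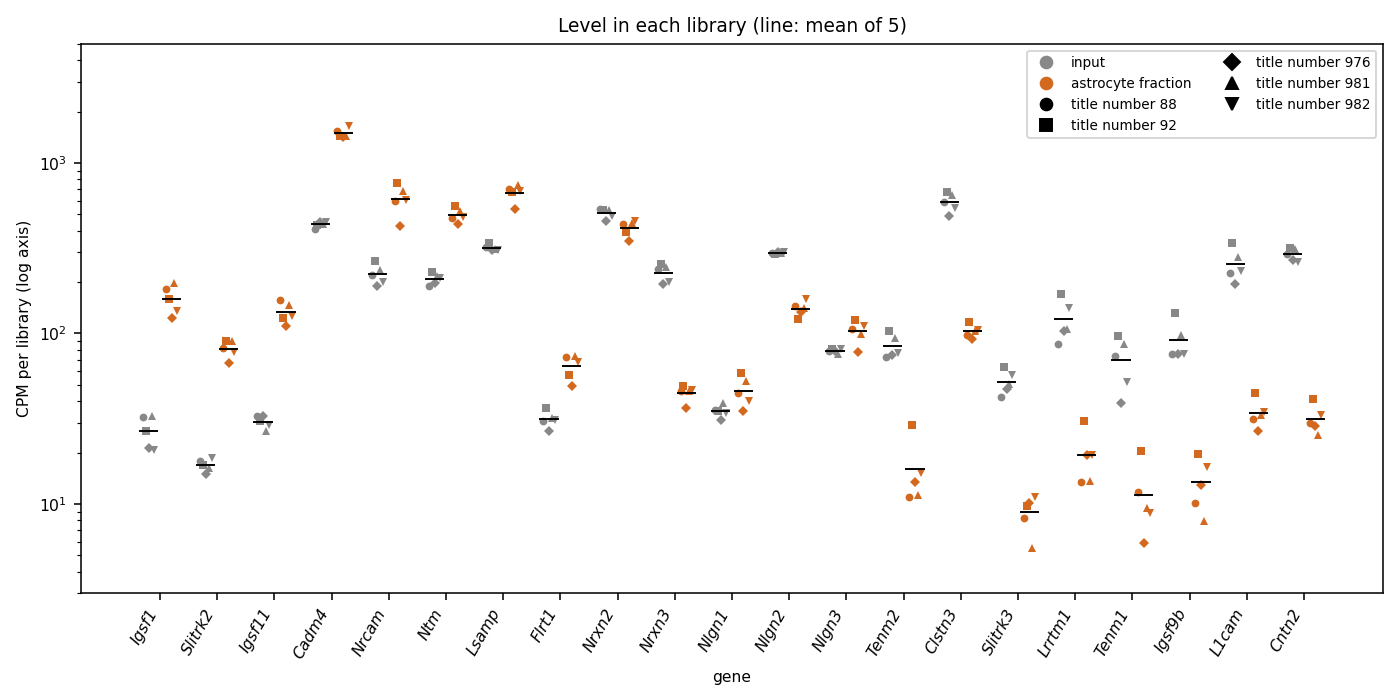
CPM in each of the 10 libraries (log axis) for 2 neurexins, the 3 neuroligins and the 8 highest and 8 lowest genes by log2 fold change, chosen by the rule given under processing. Grey points are input, orange points the astrocyte fraction, shapes mark the title number and lines the mean of 5. Groups are fully apart for all genes shown except Nlgn1 and Nlgn3.

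Among genes whose products bind receptor phosphatases of the LAR type, Slitrk2 stood against its family. Slitrk proteins are postsynaptic and meet these phosphatases on the axon. Slitrk2 was at 17.9, 16.99, 14.9, 16.3 and 18.4 CPM in the input and at 81.6, 89.8, 67.2, 90.5 and 77.4 CPM in the fraction. The gene (ENSMUSG00000036790) lies on chromosome X, 66649318 to 66661393 (mm10). Slitrk2 rose 4.78-fold (2.26 ± 0.10, adjusted p = 5.75e-10), and its lowest fraction library, 976, was above every input by a wide margin. The other 5 Slitrk genes fell. Slitrk3 was at 42.2, 63.9, 46.9, 50.6 and 57.2 CPM in the input and at 8.28, 9.68, 10.1, 5.47 and 10.99 CPM in the fraction. Slitrk3 fell by 2.55 on the log2 scale (adjusted p = 5.04e-08), Slitrk1 by 2.0, Slitrk4 by 2.68 and Slitrk6 by 2.91, while Slitrk5 fell by 0.99 (adjusted p = 2.59e-07). The ratio of Slitrk2 to each of the other 5 was higher in the fraction by 3.24 to 5.04 on the log2 scale (adjusted p = 0.0170 each, exact permutation test). The Lrfn genes encode SALM proteins, which also bind these phosphatases. Of 5, Lrfn1 (-1.60), Lrfn2 (-2.31) and Lrfn5 (-2.21) were lower, and Lrfn3 (-0.23, adjusted p = 0.0783) and Lrfn4 (0.17, adjusted p = 0.371) were not called. Without the fraction library 92 both were called, Lrfn4 higher (0.32, adjusted p = 0.00377) and Lrfn3 lower (-0.28, adjusted p = 0.0141), whereas with scaling to total counts Lrfn4 turned to -0.11. Lrfn3 was also called lower with total counts (-0.51, adjusted p = 0.000633), with DESeq2 (-0.26, adjusted p = 0.0319) and with a mean of at least 5 CPM (-0.32, adjusted p = 0.0190).

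The promoters of a rising and a falling member are shown for 2 families, picked after their values were seen because these relatives moved in opposite directions, as the 250 bases before the RefSeq start site (GRCm38.p6, the assembly behind mm10), 5′ to 3′ on the gene's strand, with CG dinucleotides in capitals. Slitrk2 (chrX:66649068-66649317, plus strand) holds 6 of them, Slitrk5 (chr14:111675777-111676026, plus strand) 30, Cadm4 (chr7:24481773-24482022, plus strand) 30 and Cadm3 (chr1:173367696-173367945, minus strand) 11. The window of Slitrk5 lies inside the gene as annotated for the counts (111675097 to 111683141).
Slitrk2: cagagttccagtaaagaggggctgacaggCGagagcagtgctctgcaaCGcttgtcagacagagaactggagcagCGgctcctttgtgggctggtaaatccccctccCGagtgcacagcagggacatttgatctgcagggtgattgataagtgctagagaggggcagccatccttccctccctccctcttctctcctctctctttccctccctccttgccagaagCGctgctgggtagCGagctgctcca
Slitrk5: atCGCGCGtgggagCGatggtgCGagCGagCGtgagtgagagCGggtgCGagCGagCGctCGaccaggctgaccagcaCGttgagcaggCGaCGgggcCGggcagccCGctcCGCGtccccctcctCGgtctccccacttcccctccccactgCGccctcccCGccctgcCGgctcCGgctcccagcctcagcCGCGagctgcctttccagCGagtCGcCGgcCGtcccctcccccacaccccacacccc
Cadm4: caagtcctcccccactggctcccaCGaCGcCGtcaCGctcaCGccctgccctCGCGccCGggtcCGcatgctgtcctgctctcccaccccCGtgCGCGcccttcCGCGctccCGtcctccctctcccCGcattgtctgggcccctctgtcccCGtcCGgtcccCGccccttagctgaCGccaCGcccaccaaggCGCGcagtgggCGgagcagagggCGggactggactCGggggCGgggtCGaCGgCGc
Cadm3: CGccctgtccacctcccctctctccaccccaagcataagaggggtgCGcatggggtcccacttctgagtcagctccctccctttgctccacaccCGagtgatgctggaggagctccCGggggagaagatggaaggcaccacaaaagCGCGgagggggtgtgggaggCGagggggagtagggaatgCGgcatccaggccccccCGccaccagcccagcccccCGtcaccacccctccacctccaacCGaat
In the Slitrk pair the rising gene had fewer CG dinucleotides than the falling one, and in the Cadm pair it had more. Both contrasts depend on the member picked: Slitrk1, Slitrk3 and Slitrk6, all lower, held 9, 5 and 3, and Cadm2, called higher, held 10. Over the members with a RefSeq entry, the median was 11.5 in 12 higher genes (range 2 to 32) and 10 in 45 lower genes (range 0 to 38), against 6 over 32536 windows of the same length.

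Latrophilin ligands went both ways. Flrt proteins bind latrophilins and Unc5 receptors. Flrt1 was at 30.4, 36.4, 26.9, 31.9 and 31.1 CPM in the input and at 72.3, 56.6, 49.1, 73.6 and 68.05 CPM in the fraction. The log2 fold change of Flrt1 was 1.03 ± 0.13, adjusted p = 5.82e-06 with no overlap, and Flrt2 rose from 28.1 ± 3.93 to 48.9 ± 5.25 CPM (0.80 ± 0.11, adjusted p = 2.72e-05). Flrt3 fell from 14.03 ± 2.77 to 3.35 ± 1.46 CPM (-1.98 ± 0.31, adjusted p = 1.35e-05), and its ratio to Flrt1 and to Flrt2 differed (adjusted p = 0.0170 each, exact permutation test), while that of Flrt1 to Flrt2 did not pass the test (0.21 ± 0.17, adjusted p = 0.368, exact permutation test). Teneurins are large transmembrane ligands of latrophilins. Tenm1 was at 73.6, 96.5, 39.1, 86.2 and 51.5 CPM in the input and at 11.8, 20.5, 5.86, 9.49 and 8.82 CPM in the fraction. For Tenm1 it was -2.72 ± 0.38, adjusted p = 3.56e-05 with no overlap, although its inputs spread widely. Tenm2 was at 72.7, 103, 74.8, 94.5 and 77.2 CPM in the input and at 11.02, 29.1, 13.4, 11.2 and 15.1 CPM in the fraction. The value of Tenm2 was -2.498 ± 0.27 (adjusted p = 1.85e-06), with the fraction library 92 above the other 4 fraction libraries. Tenm4 was lower (-1.03), and its fraction library 976 stood at 87.7 CPM against 37.6 to 44.2 CPM in the other 4. Tenm3 had nearly equal means in input and fraction (67.1 ± 7.73 and 67.0 ± 11.01 CPM, log2 fold change 0.00, adjusted p = 0.986), though it was called lower with scaling to total counts (-0.29, adjusted p = 0.0304). The ratio of Tenm3 to Tenm1 was higher in the fraction by 2.65 ± 0.37 (adjusted p = 0.0170, exact permutation test).

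The Elfn and Lingo genes, also of the leucine-rich kind, and the genes named Lrrn were all lower. Both Elfn genes fell, Elfn1, which recruits metabotropic glutamate receptors across the synapse, by 1.97 and Elfn2 by 2.08 on the log2 scale. All 4 Lingo genes fell, with Lingo1, a partner of the Nogo receptor, going from 144 ± 27.04 to 42.8 ± 7.88 CPM (-1.76 ± 0.17, adjusted p = 3.16e-07), and none of their 6 ratios passed the test. All 5 genes named Lrrn were lower, from Lrrn1 (-0.66) and Lrrn2 (-0.97) to Lrrn3 (-1.998). Lrrn4 and Lrrn4cl had only 0 to 41 counts per fraction library. The call of Lrrn4cl (-1.35, adjusted p = 0.0256) did not survive dropping any 1 of the inputs 88 and 981 or of the fraction libraries 976, 981 and 982 (adjusted p from 0.0525 to 0.0698) or number 92 (adjusted p = 0.0524), its value ran from -2.13 without the fraction library 88 to -1.08 without the fraction library 976, and without numbers 976 and 982 that of Lrrn4 was lost too (-1.30, adjusted p = 0.0695).

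Cadm genes encode immunoglobulin adhesion proteins, also called SynCAM or nectin-like proteins, of which Cadm4 on Schwann cells is known to meet Cadm3 on axons. Cadm4 was at 411, 433, 452, 437 and 453 CPM in the input and at 1544, 1432, 1417, 1437 and 1655 CPM in the fraction. The gene (ENSMUSG00000054793) lies on chromosome 7, 24482023 to 24504539 (mm10). Cadm4 rose 3.42-fold (1.78 ± 0.05, adjusted p = 2.77e-10), and the 5 values within each group lay close together. Cadm3 fell from 349.5 ± 19.3 to 75.3 ± 4.87 CPM (-2.21 ± 0.06, adjusted p = 7.28e-11). The log2 ratio of Cadm3 to Cadm4 was -0.32 ± 0.10 for the inputs against -4.31 ± 0.11 for the fraction (SD, n = 5), a difference of -3.99 ± 0.07 (SE, adjusted p = 0.0170, exact permutation test). Cadm1 rose from 123 ± 21.2 to 238 ± 40.1 CPM (0.95 ± 0.16, adjusted p = 4.14e-05). Cadm2 was called higher (0.39, adjusted p = 0.0241), a call that did not survive dropping any 1 of the inputs 88, 976 and 982 or of the fraction libraries 92 and 981 (adjusted p from 0.0532 to 0.0591), and that was lost with total counts (0.10, adjusted p = 0.487), a mean of at least 5 CPM (adjusted p = 0.0725) or limma (adjusted p = 0.0700). All 6 ratios between Cadm genes differed.

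Both Ncam genes, founding members of the neural cell adhesion group, were called higher. Ncam1 rose from 365 ± 44.6 to 596 ± 96.7 CPM (0.71 ± 0.14, adjusted p = 0.000181) with no overlap between groups. For Ncam2 the value was 0.58 (adjusted p = 0.0280), which was not called when any 1 of the inputs 976 and 982 and the fraction libraries 92 and 981 was left out (adjusted p from 0.0563 to 0.0723), nor with total counts (0.29, adjusted p = 0.221), a mean of at least 5 CPM (adjusted p = 0.0563) or limma (adjusted p = 0.0608). The ratio of Ncam1 to Ncam2 did not pass the test (0.12 ± 0.13, adjusted p = 0.480, exact permutation test).

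The 4 IgLON genes, whose products are anchored to the membrane by a lipid and pair with one another, parted by gene. Ntm was at 190.2, 229, 197, 218 and 211 CPM in the input and at 473, 562, 439.9, 524 and 483 CPM in the fraction. For Ntm (neurotrimin) the log2 fold change was 1.25 ± 0.08, adjusted p = 2.14e-08. Lsamp was at 322, 339.8, 309, 315 and 308 CPM in the input and at 707, 676, 538, 745 and 686 CPM in the fraction. For Lsamp it was 1.07 ± 0.08, adjusted p = 1.47e-07, and for both genes all fraction libraries lay above all inputs. Opcml fell from 117 ± 10.3 to 23.7 ± 2.13 CPM (-2.30 ± 0.08, adjusted p = 2.18e-10). Negr1 was not called (0.25, adjusted p = 0.0777), was higher in 5 of 5 numbers, and passed the test in the blocked fit (0.25, adjusted p = 0.0107) and without the fraction library 976 (0.39, adjusted p = 0.00745), the input 981 (0.32, adjusted p = 0.0270) or the input 88 (0.30, adjusted p = 0.0444), while scaling to total counts turned it to -0.04. Of the 6 ratios between these 4 genes, that of Lsamp to Ntm did not pass the test (-0.18 ± 0.08, adjusted p = 0.0826, exact permutation test) and the other 5 did. It was lower in the fraction in 5 of 5 numbers, with an adjusted p of 0.220 in the blocked limma fit. The largest difference was that of Ntm to Opcml, higher in the fraction by 3.55 ± 0.10.

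**Figure D3:**
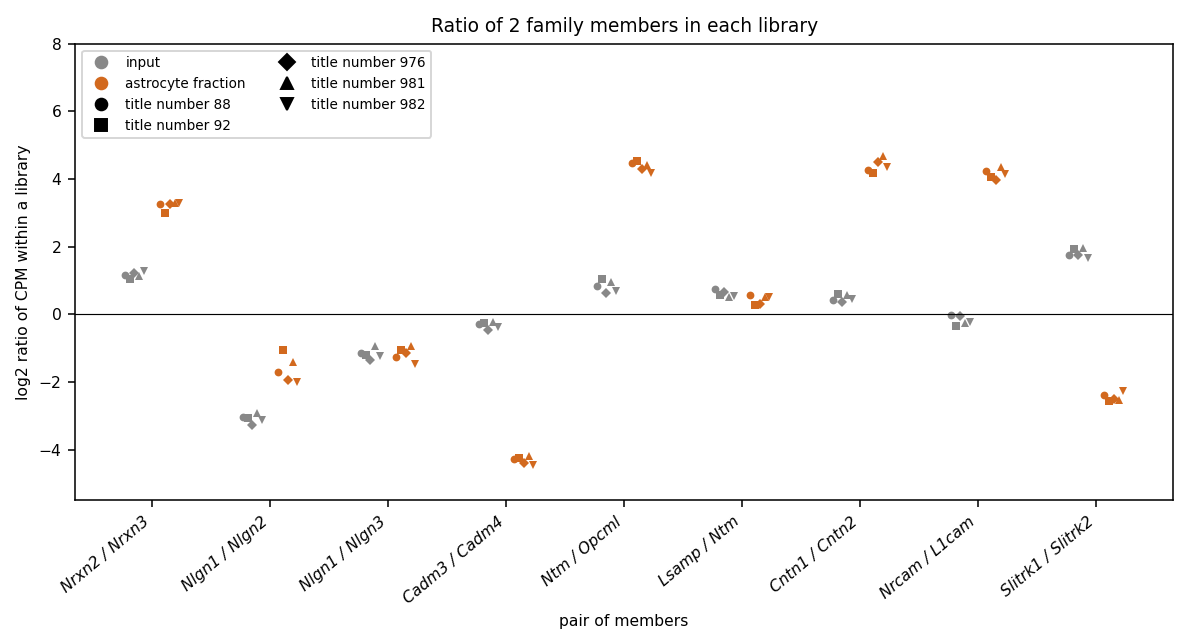
Log2 ratio of the CPM of 2 family members within each library (vertical axis) for 9 pairs picked for display after their values were seen, with grey points for input, orange points for the astrocyte fraction and shapes for the title number. In 7 pairs the groups are fully apart, whereas Nlgn1 to Nlgn3 and Lsamp to Ntm overlap.

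In the L1 family, transmembrane proteins that link neighbouring cells to ankyrin inside, Nrcam and L1cam moved furthest apart. Nrcam was at 221, 267, 189, 236 and 200.5 CPM in the input and at 598, 758, 426, 682 and 607 CPM in the fraction. The gene (ENSMUSG00000020598) lies on chromosome 12, 44328885 to 44601964 (mm10). Nrcam, known from nodes of Ranvier and from astrocyte contacts with synapses, rose 2.76-fold (1.46 ± 0.17, adjusted p = 1.17e-06). L1cam was at 225, 338, 195, 281 and 233 CPM in the input and at 31.6, 44.9, 26.9, 33.3 and 34.4 CPM in the fraction. The gene (ENSMUSG00000031391) lies on chromosome X, 73853778 to 73896105 (mm10). L1cam, a protein of growing and unmyelinated axons, fell to 13.2% of the input (-2.92 ± 0.18, adjusted p = 8.38e-09). Neither gene had overlapping groups, and their ratio (L1cam to Nrcam) went from 0.18 ± 0.14 to -4.16 ± 0.14 on the log2 scale (SD, n = 5), a difference of -4.34 ± 0.09 (SE, adjusted p = 0.0170, exact permutation test). Nfasc, whose axonal and glial isoforms are not separated by counts per gene, fell to 46.8% of the input (-1.09 ± 0.16, adjusted p = 1.06e-05). Chl1 was not called (-0.19, adjusted p = 0.379), and it was called lower with scaling to total counts (-0.47, adjusted p = 0.0272). All 6 ratios within the family differed.

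Contactins, which are lipid-anchored partners of L1 family and Cntnap proteins, fell except for Cntn1. Cntn1, the contactin of paranodal junctions and a partner of the phosphatase gene product of Ptprz1, rose from 409.8 ± 62.4 to 663 ± 61.6 CPM (0.69 ± 0.12, adjusted p = 6.85e-05) without overlap. Cntn2 was at 291, 319, 270.1, 312 and 261 CPM in the input and at 29.7, 41.1, 28.8, 25.4 and 33.01 CPM in the fraction. The gene (ENSMUSG00000053024) lies on chromosome 1, 132509427 to 132543256 (mm10). Cntn2 (TAG-1), found beside the paranode on axons and on oligodendrocytes, fell to 10.7% of the input (-3.22 ± 0.13, adjusted p = 1.76e-10). Its log2 fold change lay below the 10 neuron markers (-2.62 to -0.46) and within the range of the mature oligodendrocyte markers (-4.13 to -0.62), whose summed level fell from between 6585 and 7962 to between 979 and 1364 CPM, and their part in the result was not tested. Cntn3 (-2.85), Cntn4 (-2.41), Cntn5 (-3.24) and Cntn6 (-2.69) were lower, with Cntn5 at 0 to 17 counts per fraction library. The ratio of Cntn1 to each of the other 5 was higher in the fraction by 3.11 to 4.47 on the log2 scale (adjusted p = 0.0170 each, exact permutation test).

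The 7 Cntnap genes, whose products (the Caspr proteins) join contactins on axons, were all lower, within a narrow range. Their log2 fold changes ran from -2.17 (Cntnap5a) to -2.496 (Cntnap5c), a span of 0.33. Cntnap1, the paranodal member, fell from 299 ± 35.7 to 66.04 ± 8.36 CPM (-2.19 ± 0.11, adjusted p = 1.39e-09) and Cntnap2, the juxtaparanodal one, from 143 ± 19.8 to 32.4 ± 10.5 CPM (-2.18 ± 0.21, adjusted p = 3.41e-07). None of the 21 ratios between Cntnap genes passed the test or had an unadjusted p under 0.05 (exact permutation test), which does not show that they were equal. With the title number as a block, in a limma fit across the 163 ratios, none of the 21 was called either, and the ratio of Cntnap1 to Cntnap4, higher in the fraction in 5 of 5 numbers, came closest (0.31, adjusted p = 0.0657). Cntnap5a, Cntnap5b and Cntnap5c are similar in sequence, so reads could be split among them.

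The Igsf genes held the highest gene of all 82, Igsf1, and 1 of the 10 below the neuron markers, Igsf9b. Igsf1 was at 32.4, 26.7, 21.1, 32.6 and 20.7 CPM in the input and at 181, 159, 124, 199 and 136 CPM in the fraction. The gene (ENSMUSG00000031111) lies on chromosome X, 49782536 to 49797749 (mm10). Igsf1, best known from the pituitary and thyroid axis, rose 5.96-fold (2.58 ± 0.19, adjusted p = 3.79e-08). Igsf11 was at 32.6, 30.4, 32.6, 26.9 and 29.03 CPM in the input and at 158, 124, 111, 146 and 126 CPM in the fraction. The gene (ENSMUSG00000022790) lies on chromosome 16, 38892671 to 39027159 (mm10). Igsf11, an adhesion protein that binds the postsynaptic scaffold PSD-95, rose 4.38-fold (2.13 ± 0.10, adjusted p = 1.44e-09), and for both genes the lowest fraction library lay far above the highest input. Igsf9b was at 75.8, 131, 75.7, 98.2 and 76.1 CPM in the input and at 10.2, 19.7, 12.8, 7.95 and 16.5 CPM in the fraction. Igsf9b, a protein of inhibitory synapses, fell by 2.82 on the log2 scale (adjusted p = 1.22e-06), while Igsf21, also known from inhibitory synapses, had a value of -0.39 (adjusted p = 0.00984) that was not called without the fraction library 976 (-0.26, adjusted p = 0.0874) or without numbers 976 and 982 (-0.19, adjusted p = 0.228). Igsf8, a partner of tetraspanins, fell from 237 ± 7.89 to 105 ± 7.05 CPM (-1.17 ± 0.05, adjusted p = 4.39e-09), and Igsf3 (-1.67), Igsf9 (-1.80) and Igsf10 (-1.47) were lower. Igsf9 had only 0 to 44 counts per fraction library. Igsf10 shares 19.8% of its exon bases with gene models on the opposite strand. Igsf6, a gene of myeloid cells, was called lower and had 12 to 23 counts in each input and 0, 0, 2, 0 and 2 counts in the fraction. With 1 library left out the log2 fold change of Igsf6 ran from -2.64 to -2.26, and with so few counts it is imprecise. It lay inside the range of the neuron markers and outside that of the 8 microglia markers (-5.05 to -3.40). The microglia markers fell from summed levels of 315 to 433 CPM to between 13.5 and 19.9 CPM, and their part was not tested.

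None of the 82 genes reached the log2 fold changes of the 9 astrocyte markers, which ran from 2.65 to 3.13. At the other end, 10 lay below the lowest neuron marker (-2.62), namely Slitrk4, Cntn6, Lrrtm1, Tenm1, Igsf9b, Cntn3, Slitrk6, L1cam, Cntn2 and Cntn5, and 48 lay inside the neuron marker range. Of the neuron markers, 9 lay between -2.62 and -2.18, and Map2 at -0.46. Many of the 48, such as Nlgn2 (-1.09) and Clstn1 (-0.73), were inside the range only through Map2.

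Per kilobase of exon, the order of levels differed between the groups. In the fraction Cadm4 stood first at 693 ± 47.1 CPM per kb (SD, n = 5), far above Clstn1 at 155 ± 7.78. Cntn1 (70.3 ± 6.53), Ncam1 (68.8 ± 11.2) and Ntm (61.4 ± 5.89) followed and overlapped within their SD, then Nrcam (46.0 ± 9.26) and Lsamp (38.9 ± 4.55), and further down Nrxn2 (30.2 ± 3.12), Igsf11 (29.6 ± 4.17) and Igsf1 (27.7 ± 5.38), which lay within 1 SD of one another. In the input Clstn1 was first (258 ± 23.3), then Cadm4 (202 ± 7.90) and Clstn3 (119 ± 15.3), which ranked 15 in the fraction. Clstn1, Nrxn2, Lrrn2 and Nlgn2 were called lower and yet were among the 13 genes of highest level per length in the fraction, while Slitrk2, for all its enrichment, was at 10.1 ± 1.19 CPM per kb. The order depended on the length used. Per kilobase of coding sequence Cadm4 was again first in the fraction (1286 CPM per coding kb), but Lsamp (504) and Ntm (415) came before Clstn1 (246.5), Nlgn2 and Lrrn2 ranked 16 and 18, and in the input Cadm3 rather than Clstn3 followed Clstn1 and Cadm4.

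**Figure D4:**
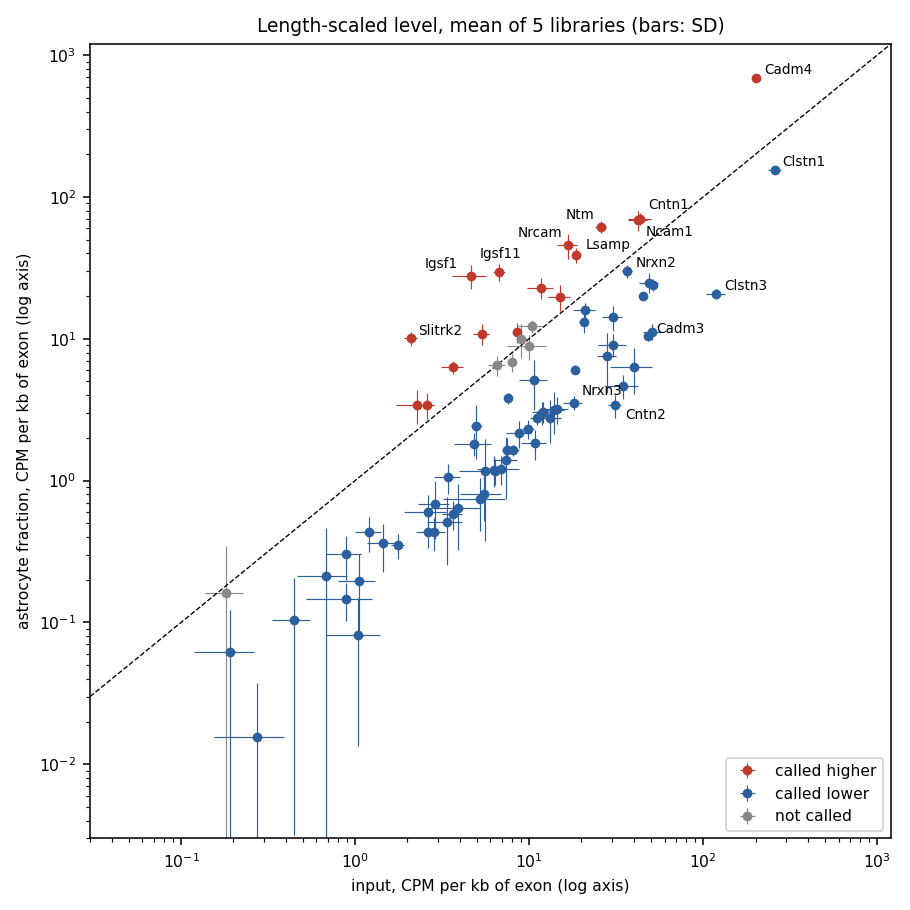
Level per kilobase of exon (CPM per kb, both axes logarithmic) in the input (horizontal) and the astrocyte fraction (vertical), with 1 point per gene as the mean of 5 libraries and bars for the SD, cut at the lower edge where they reach below it. The dashed line marks equal levels, and Cadm4 (202 and 693) and Clstn1 (258 and 155) lie at the top on either side of it.

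The libraries did not contribute alike. The fraction library 976 was the lowest of the fraction for 15 of the 17 higher genes, and the sum of these 17 was 5246 CPM there against 6276 to 6894 CPM in the other 4. In the same library the astrocyte markers summed to 19700 CPM against 24360 to 29450 CPM, and the choroid plexus and ependyma markers stood highest. The shallow fraction library 92 was the highest for 26 of the 59 lower genes and the lowest for 15, and its neuron markers summed to 1999 CPM against 1563 to 1713 CPM in the other 4. The input 92 was the highest input for 27 of those 59 genes. Without numbers 976 and 982, 18 genes were higher and 56 lower, and without number 92, 16 were higher and 60 lower.

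A list of extracellular partners of these molecules and related surface genes went both ways too. Not every listed gene encodes an established partner: Cntfr, Sdk1, Sdk2, Dscam and Dscaml1 were counted too, as was Iglon5, itself an IgLON gene. Of 41 listed genes tested, 11 rose (26.8%), 23 fell (56.1%) and 7 were not called (median log2 fold change -0.75), against 33.1% higher and 37.5% lower among all tested genes. Dag1 (1.90), which encodes dystroglycan, a neurexin ligand, Cntfr (2.11), a receptor for ciliary neurotrophic factor, Sparcl1 (2.49), whose product hevin bridges neurexin and neuroligin, and the LAR gene Ptprf (0.85) had the smallest adjusted p among those that rose. The astrocyte glypicans Gpc4 (1.85) and Gpc6 (1.52) and Ptprz1 (0.95), singled out after their values were seen, also rose. Dscam (-2.33), the matrix gene Tnr (-2.57), the Flrt receptor gene Unc5b (-2.96) and the latrophilin gene Adgrl2 (-2.62) had the smallest adjusted p among those that fell, while the latrophilin Adgrl3, singled out likewise, rose (1.04). Of 36 genes listed as scaffolds inside the cell, 9 rose (25%), 23 fell (63.9%) and 4 were not called (median -1.19). The 23 include Nptn (-0.70), whose product neuroplastin spans the membrane and is not a scaffold. Epb41l2 (1.61), Lin7c (1.30), Magi2 (1.10) and the ankyrin gene Ank2 (1.34) had the smallest adjusted p among those that rose, and Epb41l3 (-2.79), Ank3 (-2.92), which encodes the ankyrin of nodes and initial segments, Sptbn4 (-2.60) and Shank1 (-2.48) among those that fell.

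**Figure D5:**
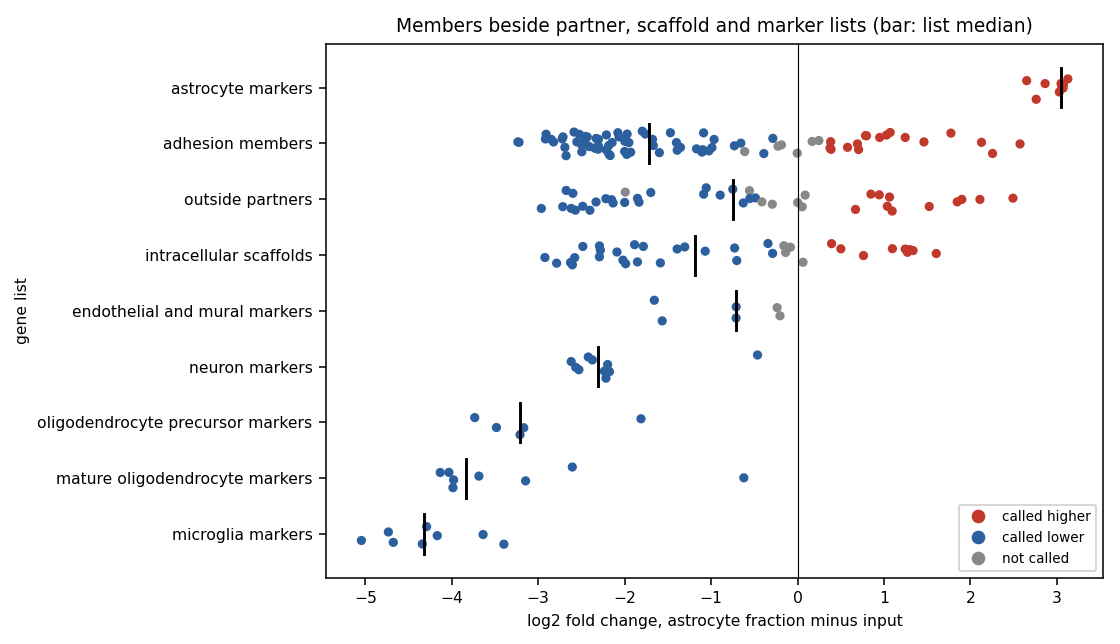
Log2 fold change (horizontal axis) of each gene in the adhesion set, the partner and scaffold lists and the marker lists other than choroid plexus, with black bars for list medians and colours for the calls. The adhesion genes, with a median of -1.72, spread from -3.24 to 2.58, and none reaches the astrocyte markers at 2.65 to 3.13.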

How the data were processed

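The authors deposited 1 table with, per gene and library, raw expected counts (estimated counts, not whole numbers) and normalized log2 values that are 0 at the input median of each gene. CASAVA 1.8, DESeq and the build mm10 appear in the submitters' processing notes, without roles. The aligner, the counter and the strand setting are unstated in the sources used here. Expected counts were rounded and tested over the whole table with edgeR 4.0.16 in R 4.3.3 (TMM scaling, filterByExpr minimum count 10, robust quasi-likelihood test, prior count 2, Benjamini-Hochberg over 17672 genes), and limma 3.58.1 was run on the deposited log2 values and DESeq2 1.42.0 on the counts as alternatives. Every adjusted p of a single gene in the text is from edgeR's test unless another is named. Standard errors are those of the difference of mean log2 CPM. Lengths and shared exon bases come from GENCODE M21, where 77 of the 82 genes have identical coordinates, and promoters from RefSeq, which gave an entry for 63 genes. Among those without an entry are Flrt1, Cadm1, Ncam1, Nlgn3, Nrxn2, Lrrtm2, Lrrn4cl, Lrfn1, Cbln1, Lrrn3, Cbln2, Cntnap5a, Cntnap1, Lrfn2, Cntnap4, Cntnap5c, Slitrk4 and Igsf9b. The RefSeq start nearest the annotated start of the gene was used, and some windows, as for Ntm, Igsf11 and Slitrk5, lie inside the annotated gene. For 54 of the 63 entries, bases just after the RefSeq start were found in a transcript of the gene.

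Members and lists were chosen with earlier results of these data known. The counts cover all 82 genes, of which 1 is not reported here. Values in every library are given for Nrxn2, Nrxn3, the neuroligins and the 8 highest and 8 lowest called genes without overlap and at or above the median level of all tested genes. Libraries with the same title number deviated together (correlations of 0.189 to 0.493 over all genes), which is the basis of the paired alternative; the highest correlation between different numbers was 0.302, and number 982 correlated more with another number (0.220) than with its own. Libraries of a group differed by more than counting noise (lowest chi-square per degree of freedom 11.2). Counts limit precision: a count of 0 allows up to 3 counts, or 0.880 CPM in the shallow fraction library 92 and at most 0.136 CPM in any other library, which covers counting error only.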

Additional observations from a re-analysis of the deposited data

Results flagged for a closer look

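In each group of 5 libraries, the library farthest out was compared with the spread of the group for each of the 82 genes, and 15 of 164 groups had a library whose gap to its nearest neighbour took more than 0.71 of the range. Chance flags about 1 in 20 groups. The fraction library 92, the shallow one, was far out for 5 genes: Lrfn4 was low at 17.9 CPM (others 35.6 to 40.8), and Cbln3 at 2.35 (0.160 to 0.734), Cntn3 at 6.46 (2.24 to 3.16), Cntn4 at 21.7 (5.39 to 8.25) and Tenm2 at 29.1 CPM (11.02 to 15.1) were high. The fraction library 976 was far out for 5 genes: Tenm4 was high at 87.7 CPM (37.6 to 44.2), and Negr1 at 104 (130.0 to 138), Lrrn1 at 34.9 (49.1 to 54.7), Slitrk1 at 11.8 (15.3 to 16.1) and Nrxn3 at 36.4 CPM (45.7 to 49.3) were low. In the fraction library 981 Lingo4 was high at 2.31 CPM (1.17 to 1.48). In the input 92, Nfasc at 523 (393 to 411), Cntnap1 at 362 (278 to 289.7) and Lingo4 at 5.71 CPM (3.83 to 4.20) were high, and in the input 976 Cbln1 was low at 66.3 CPM (87.0 to 94.1).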

How the results depend on the processing

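Of 1548 values recomputed for single genes under 19 alternatives (other scalings, tests and filters, the block, libraries left out), 1490 kept their direction and call, and 68 of the 76 called genes kept both in every alternative run. With the title number as a replicate block 18 genes were higher and 59 lower; only Negr1 changed its call (0.25, adjusted p = 0.0107). The median of -1.72 moved to -1.995 with scaling to total counts, -1.85 with DESeq2 and -2.003 with limma on the authors' log2 values. Leaving out 1 library gave 15 to 18 higher and 56 to 61 lower genes. The direction of Negr1 (-0.0426) and Lrfn4 (-0.11) turned with total counts, that of Cbln3 without numbers 976 and 982 (0.0581), and that of Tenm3 with no filter (0.0187), without number 92 (0.0366) or numbers 976 and 982 (0.196). With 1 library left out Tenm3 ran from -0.0617 to 0.165. Family ratios gave 80 to 91 called pairs with 1 library left out and 0 without number 92, where the smallest p is 0.0286 before adjustment. Chosen after seeing the data, limma across the ratios called 89 pairs, and 91 with the replicate block, which kept 84 of the 86 and added 7. Sign flips over 5 numbers allow no p below 0.0625, and without numbers 976 and 982 none falls below 0.100. Depth limits, among others, Igsf6, Igsf9, Cntn5, Lrrn4, Lrrn4cl, Cbln3 and Lingo4, with few counts in the fraction.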

Other observations

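The 250-base promoter windows were searched on both strands for the half-site TTGGCA of nuclear factor I and for the SOX motif AACAAT, which can share only letters at their ends. The first was found in 0 of 12 higher genes, 4 of 45 lower genes (8.89%) and 3 of 6 genes not called, against 12.3% of all 32536 windows. The second was found in 1 of 12 higher genes, 1 of 45 lower genes (2.22%) and 1 of 6 genes not called, against 9.35% of all windows. These shares come from unlike sets. Each adhesion gene gave 1 window, whereas the 32536 are all distinct windows without a limit of 1 per gene. The median GC content was 59.4% in higher and 60% in lower genes, against 52.4% over all windows, and its part was not tested. Some windows of the adhesion genes lie inside the annotated gene, as given under processing. Ntm, the 1 higher gene with the SOX motif, is among them, and the bases after its RefSeq start were not found in its transcripts.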
